A study of Mus musculus with 9 samples.

Results

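The melanopsin phototransduction cascade was followed through 8 genes: the Gq-class alpha subunits Gnaq, Gna11 and Gna14, the phospholipase C beta genes Plcb1, Plcb3 and Plcb4, and the cation channel genes Trpc6 and Trpc7. They were chosen by name for their place in the cascade, and all 8 were found among the 53280 genes of the count table and as 52 of the 118489 transcript entries of the TPM table. Neural retina was taken at postnatal day 4 from mice lacking Opn4, the melanopsin gene, on both chromosomes (label Opn4KO) and from wildtype littermates (Opn4WT) of crosses between Opn4 heterozygotes. All pups were kept under standard lighting of about 300 lux and killed 6 to 7 h after lights on. Retinas of 2 animals, 4 in all, were combined into each sample, which gave 5 knockout and 4 wildtype pools of polyA RNA. The strain and sex of the pups and the extent of the Opn4 deletion are not given in the sources used here.

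In intrinsically photosensitive retinal ganglion cells (ipRGCs), light-activated melanopsin couples to a G protein of the Gq class. Its alpha subunit switches on a phospholipase C beta, which splits the membrane lipid PIP2 into the messengers IP3 and diacylglycerol, and the response ends in the opening of TRPC channels. In the mouse, loss of Plcb4, or of Trpc6 and Trpc7 together, abolishes or strongly reduces the intrinsic light response of the M1 type of these cells. The cells are a small minority of retinal neurons, whereas the G protein and phospholipase genes are also used by other cells, so that whole retina reports the sum over all of them.

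Gnaq, Gna11 and Gna14 encode closely related proteins, and their reads can be kept apart only where their sequences differ. The coding sequences of Gnaq and Gna11 were 80.5% identical over 1080 aligned bases, those of Gnaq and Gna14 75.1% identical, and those of Gna11 and Gna14 74.6% identical. A window of 90 coding bases is shown for Gnaq and Gna14. This window was placed around the longest run that Gnaq shares with Gna11, 38 bases, whose sequence is not shown. The window also holds the longest run shared by Gnaq and Gna14, where their reads are hardest to tell apart. It is written 5′ to 3′ on the coding strand from GENCODE M21 transcripts (GRCm38), with capitals at each base that differs from Gnaq, and it spans coding bases 691 to 780 of Gnaq and 679 to 768 of Gna14.
Gnaq: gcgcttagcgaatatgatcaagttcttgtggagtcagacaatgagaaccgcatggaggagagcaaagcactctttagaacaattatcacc
Gna14: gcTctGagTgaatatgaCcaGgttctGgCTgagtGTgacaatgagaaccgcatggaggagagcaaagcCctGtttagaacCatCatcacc
Within this window Gna14 differed from Gnaq at 14 bases, and the longest identical run was 32 bases. Reads were 150 bases long. Of all words of 31 bases in the transcripts of a gene, the share also found in transcripts of another gene was 1.16% for Gnaq, 0.689% for Gna11, 0.0588% for Gna14, 2.17% for Plcb1, 0% for Plcb3, 0.687% for Plcb4, 5.29% for Trpc6 and 0.372% for Trpc7. Gnaq and Gna11 shared 16 such words. Exons of Plcb1 and Plcb3 overlapped an antisense gene over 178 and 22 bases.

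None of the 8 genes lies on chromosome 14, where Opn4 is (34590618 to 34600142, minus strand; GENCODE M21 on GRCm38 for all positions). Gnaq (chromosome 19, 16132831 to 16387463, plus strand) and Gna14 (16435762 to 16610820, plus strand) are neighbours with 48.3 kb between them and no protein-coding gene in that gap. Plcb3 is on the same chromosome at 6952325 to 6976470 (minus strand). Plcb1 (chromosome 2, 134786067 to 135475258, plus strand) and Plcb4 (135659011 to 136014593, plus strand) are likewise neighbours, 183.8 kb apart. Gna11 lies on chromosome 10 (81528724 to 81545190, minus strand), 4.5 kb from Gna15, the remaining Gq-class gene. Trpc6 is on chromosome 9 (8544142 to 8680741, plus strand) and Trpc7 on chromosome 13 (56773113 to 56895993, minus strand).

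The count table held 65.5 to 86.1 M counts per pool (M, mega), above the average of 42.7 M reads per sample that the submitters give, so that a count need not be 1 read pair. Opn4 stood at 1.07 to 1.82 CPM in knockout (counts scaled to library size by TMM) and at 11.4 to 12.03 CPM in wildtype, so that each library matched its label. Lens transcripts, from tissue next to the retina, were summed over 9 marker genes and reached 18.8 and 15.7 CPM in knockout pools 1 and 2, while the remaining 7 pools held 7.98 to 9.31 CPM. Knockout pools 1 and 2 also had the most rod marker transcripts, at 3806 and 3708 CPM, with 2715 to 3042 CPM in knockout pools 3 to 5. The part of either in the results on the cascade was not tested, and the values without both pools are given where they change a direction.

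Compared per length, the cascade genes fell into 3 tiers in the P4 retina. The upper tier held both main alpha subunits and Plcb4. Gna11 measured 49.3 to 56.8 TPM (abundance corrected for length and depth, summed here over all entries of a gene) over the 9 pools, with a mean of 54.4 TPM. Gnaq measured 49.3 to 54.1 TPM, with a mean of 52.0 TPM, and Plcb4 42.0 to 51.4 TPM, with a mean of 46.9 TPM. The ranges of Gna11 and Gnaq overlapped, as did those of Gnaq and Plcb4, so that their order is not beyond the spread between pools. Plcb3 (8.60 to 13.4 TPM) and Plcb1 (4.65 to 6.14 TPM) formed the middle tier, apart from each other and from the upper one in every pool. Trpc6 (0.783 to 1.09 TPM), Trpc7 (0.359 to 1.44 TPM) and Gna14 (0.0823 to 0.516 TPM) formed the lowest tier. The range of Trpc7 overlapped those of Trpc6 and Gna14, while the lowest pool of Trpc6 lay above the highest of Gna14. Opn4 itself measured 9.64 to 11.4 TPM in wildtype, near Plcb3 and above either channel gene.

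**Figure D1:**
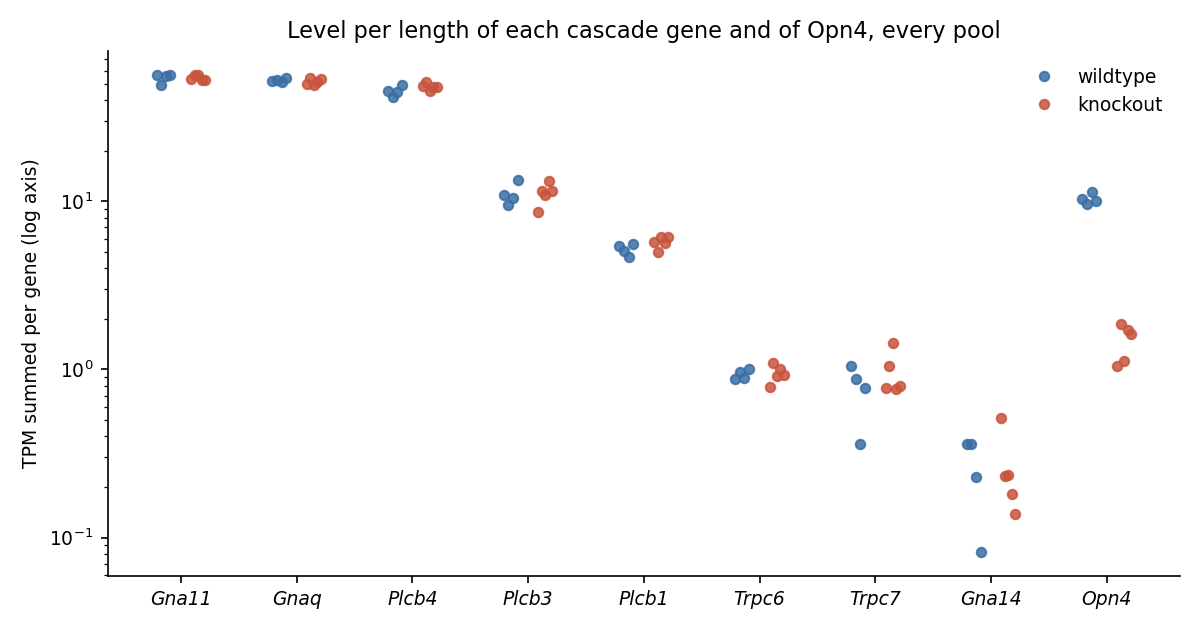
TPM summed per gene (log axis) in each of 4 wildtype (blue) and 5 knockout (red) pools for the 8 cascade genes, ordered by mean, and for Opn4. Gna11, Gnaq and Plcb4 lie between 42.0 and 56.8 TPM in every pool and the channel genes near 1 TPM, while only Opn4 shows a wide gap between the genotypes.

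Within each family a different balance was found. Gnaq and Gna11 shared the Gq-class alpha transcripts nearly evenly: Gnaq took 46.1 to 50.8% of the summed TPM of Gnaq, Gna11, Gna14 and Gna15, and Gna11 took 47.3 to 52.6%. The TPM ratio of Gnaq to Gna11 was 0.933, 0.958, 0.876, 0.974 and 1.02 in knockout pools 1 to 5 and 0.921, 1.07, 0.924 and 0.952 in wildtype pools 1 to 4. Gna14 supplied at most 0.490% of that sum. Among the phospholipase C beta genes, Plcb4 held 71.5 to 76.7% of the TPM, Plcb3 13.7 to 19.7%, Plcb1 7.30 to 9.73% and Plcb2, chiefly known from blood cells and taste cells, at most 1.05%. Other members held larger shares of the TRPC transcripts of the retina, with Trpc1 at 32.7 to 42.1% and Trpc4 at 16.3 to 22.2% of the summed TPM of the 7 TRPC genes. Trpc6 took 3.54 to 5.20% and Trpc7 1.66 to 6.06% of it. These shares overlapped between the genotypes for every one of the 8 cascade genes. Trpc2, named after its values were seen, was listed at 0.800 to 1.64 TPM in wildtype and at 7.91e-07 to 1.40 TPM in knockout. These ranges overlap, and its counts were too low for it to be tested between the genotypes.

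Between the genotypes, none of the 8 genes passed the test, while 3.59% of the 21150 genes tested did (edgeR quasi-likelihood F test, two-sided, Benjamini-Hochberg adjusted p under 0.05 over all genes). All 8 passed the filter on low counts. At an unadjusted p under 0.05, Plcb4 alone was found, against 16.5% of all genes tested. DESeq2 called 1 of the 8, again Plcb4, and gave Gna14 no adjusted p. It called 9.54% of the 15816 genes to which it gave an adjusted p. Log2 fold changes (knockout minus wildtype) of the 8 genes ran from −0.22 to 0.21, 4 of them positive. Their median was 0.020 and the median of their absolute values 0.12, beside 0.0012 and 0.11 over all genes tested. In a whole-retina pool, fewer cells of a type and less RNA per cell cannot be told apart. Each pool came from separate animals, but the litters are not given, so that the p-values measure the spread between pools.

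**Figure D2:**
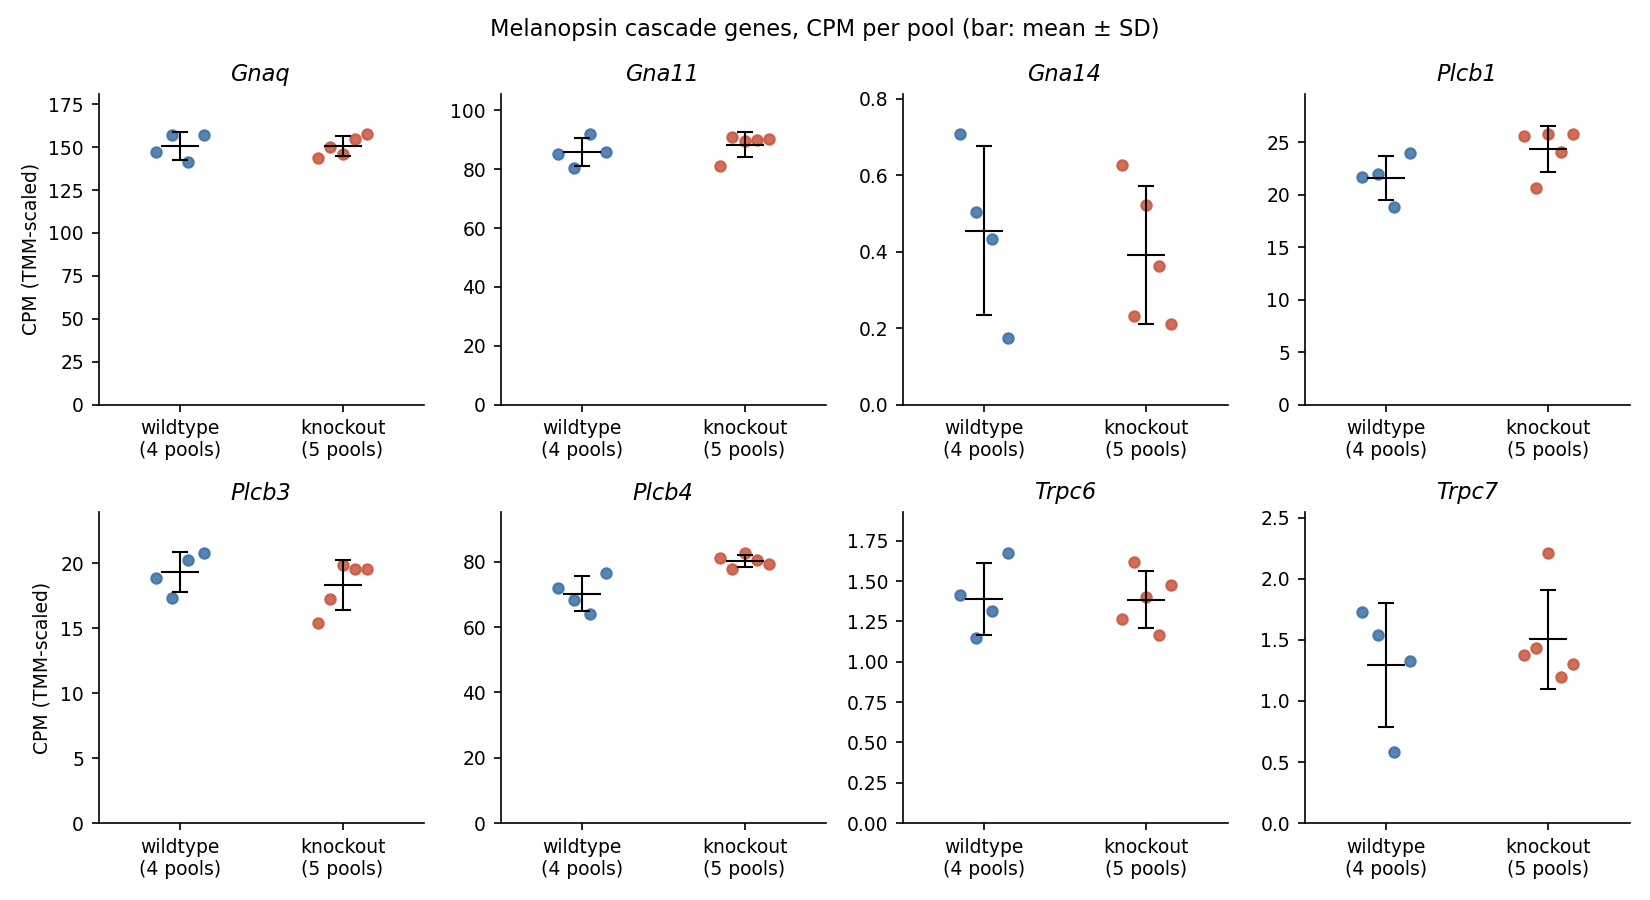
CPM (TMM-scaled, axes from 0) of each cascade gene in every pool, with the mean and SD of 4 wildtype and 5 knockout pools. The points of both genotypes overlap for 7 genes and are apart for Plcb4, where knockout pools lie at 77.9 to 82.8 CPM and wildtype pools at 64.0 to 76.6 CPM.

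Gnaq, the founding member of its class, held 143, 150, 146, 155 and 158 CPM in knockout pools 1 to 5 and 147, 157, 141 and 157 CPM in wildtype pools 1 to 4. Both ranges lay almost on top of each other, at 150.4 ± 5.9 CPM in knockout (SD, n = 5) and 150.7 ± 7.9 CPM in wildtype (SD, n = 4). Their log2 fold change came to −0.0027 (edgeR, SE 0.046, adjusted p = 0.986), with a 95% interval that spans 0.931-fold to 1.07-fold. Gna11, its close relative, held 81.0, 91.0, 89.7, 90.1 and 90.3 CPM in knockout and 85.3, 80.6, 92.0 and 85.7 CPM in wildtype. Knockout pool 1 lay below the other 4 knockout pools but above the lowest wildtype pool. The log2 fold change of Gna11 was 0.042 (edgeR, SE 0.049, adjusted p = 0.746; 0.956-fold to 1.11-fold). The intervals of this pair are the narrowest of the set together with that of Plcb4.

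Gna14, an alpha subunit with a more restricted expression, was near the lower limit of the counts. Its 48, 18, 34, 27 and 18 counts in knockout came to 0.627, 0.233, 0.523, 0.362 and 0.211 CPM, and its 61, 37, 36 and 14 counts in wildtype to 0.708, 0.504, 0.434 and 0.174 CPM. Pools of 1 genotype differed by about as much as the whole range, and both the highest and the lowest pool were wildtype. A log2 fold change of −0.22 was fitted (edgeR, SE 0.44, adjusted p = 0.870), and its interval of 0.440-fold to 1.67-fold holds changes of considerable size in either direction. Without wildtype pool 1 the log2 fold change was 0.071.

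Plcb4, the phospholipase that melanopsin signalling in M1 cells depends on, showed the clearest separation of the 8 genes without passing the test. It held 81.0, 77.9, 82.8, 80.6 and 79.3 CPM in knockout pools and 71.9, 68.3, 64.0 and 76.6 CPM in wildtype pools. Every knockout pool lay above every wildtype pool. A lack of overlap in either direction was found in 1 of the 8 genes and in 8.29% of all genes tested, and 3.92% had all knockout pools higher. Means were 80.3 ± 1.8 CPM in knockout (SD, n = 5) and 70.2 ± 5.3 CPM in wildtype (SD, n = 4), which the fit gave as a log2 fold change of 0.19 (edgeR, SE 0.051, adjusted p = 0.0564; interval 1.06-fold to 1.23-fold). The adjusted p ranged from 0.00972 to 0.146 over 16 other settings and was under 0.05 in 4 of them: 0.00972 with DESeq2, 0.0454 when genes under a mean of 1 CPM were left out, 0.0470 in a robust fit and 0.0257 without wildtype pool 4.

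Markers of several cell types also differed between the genotypes, although the sums for bipolar cells and Müller glia overlapped. The sum of 8 rod markers was 2715 to 3806 CPM in knockout and 2361 to 2594 CPM in wildtype, with 6 of 8 genes higher. That of 9 bipolar cell markers was 1073 to 1155 CPM in knockout and 1030 to 1078 CPM in wildtype, with 5 of 9 higher. Markers of horizontal cells stood at 205 to 225 CPM against 150 to 192 CPM, with 2 of 5 higher. Markers of Müller glia stood at 940 to 1069 CPM against 863 to 1002 CPM, with 2 of 6 higher. Those of red blood cells stood at 73.7 to 99.3 CPM against 109.96 to 335 CPM, with 5 of 5 lower. The sum of 10 progenitor and cell cycle markers was 1662 to 2135 CPM against 2718 to 2871 CPM, with 9 of 10 lower. Sums of ganglion cell markers (1242 to 1431 CPM in knockout, 1287 to 1405 CPM in wildtype) overlapped. So did those of cone markers (294 to 395 against 331 to 372 CPM) and amacrine cell markers (979 to 1070 against 1024 to 1093 CPM). No listed marker of these types was at 0 in all pools, and their part in the difference of Plcb4 was not tested. Without knockout pools 1 and 2, which held the most rod transcripts, the log2 fold change of Plcb4 was 0.20 (edgeR adjusted p = 0.126). Markers of ipRGCs other than Opn4, such as the transcription factor Eomes, did not pass the test, with Eomes at 39.3 to 45.9 CPM in knockout and 39.5 to 49.3 CPM in wildtype.

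Plcb1, known mainly for muscarinic and other Gq signalling in the forebrain, held 25.7, 20.7, 25.8, 24.1 and 25.8 CPM in knockout and 21.7, 22.0, 18.9 and 24.0 CPM in wildtype. Knockout pools 1, 3, 4 and 5 lay above all wildtype pools, and knockout pool 2 lay among them. For Plcb1 the fit gave a log2 fold change of 0.17 (edgeR, SE 0.085, adjusted p = 0.331; interval 0.994-fold to 1.28-fold), and it was 0.11 without wildtype pool 3. Plcb3, the most widely expressed of the phospholipase C beta genes, held 15.4, 17.2, 19.9, 19.6 and 19.6 CPM in knockout and 18.9, 17.3, 20.2 and 20.8 CPM in wildtype. Knockout pools 1 and 2 were the lowest of all 9 pools. Its log2 fold change came to −0.075 (edgeR, SE 0.088, adjusted p = 0.741; interval 0.832-fold to 1.082-fold) and turned to 0.023 without those pools.

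Both channel genes were detected in every pool, Trpc6 at 84 to 135 counts and Trpc7 at 48 to 149 counts. Trpc6, which also serves smooth muscle and kidney podocytes, held 1.27, 1.62, 1.40, 1.17 and 1.47 CPM in knockout and 1.42, 1.14, 1.31 and 1.68 CPM in wildtype. Its lowest and highest pools were both wildtype, with all knockout pools between them. For Trpc6 the fit gave a log2 fold change of −0.0029 (edgeR, SE 0.18, adjusted p = 0.997; interval 0.766-fold to 1.30-fold). Trpc7 held 1.37, 1.44, 2.21, 1.19 and 1.30 CPM in knockout and 1.73, 1.54, 0.578 and 1.33 CPM in wildtype. Knockout pool 3 was the highest and wildtype pool 3 the lowest, with the other 7 pools between 1.19 and 1.73 CPM. The log2 fold change of 0.21 (edgeR, SE 0.29, adjusted p = 0.787; interval 0.751-fold to 1.79-fold) became −0.031 without wildtype pool 3. Both intervals hold falls as well as rises in whole retina. Opn4, the deleted gene, fell to 11.6% of its wildtype mean.

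The same libraries quantified per transcript again gave no call, and in TPM the differences of all 3 phospholipase genes were smaller than in counts. In TPM summed per gene, 5 of the 8 genes reached 1 TPM in at least 4 pools and were tested with limma on log2(TPM + 0.5), a scale that understates changes of low genes. None passed at an adjusted p under 0.05 or at an unadjusted one, where 2.16% and 15.5% of the 15295 genes did. Plcb4 measured 48.3, 51.4, 45.4, 48.0 and 47.7 TPM in knockout and 45.2, 42.0, 44.7 and 49.2 TPM in wildtype. These groups overlapped, since wildtype pool 4 lay above 4 of the 5 knockout pools. The log2 difference of Plcb4 on this scale was 0.089 (SE 0.056; limma adjusted p = 0.497) and that of Plcb1 0.13 (SE 0.094; limma adjusted p = 0.553), while those of Gnaq, Gna11 and Plcb3 were −0.030, −0.0079 and 0.0034. In the authors' deposited table all 8 genes were present and none had a q under 0.05, against 1.46% of its 17433 genes. That table, in the authors' deposited values converted to log2 of knockout over wildtype, gave 0.13 (SE 0.079, q = 0.546) for Plcb4, 0.22 (SE 0.10, q = 0.351) for Plcb1, 0.24 (SE 0.25, q = 0.814) for Trpc6 and 0.39 (SE 0.31, q = 0.724) for Trpc7. In the authors' deposited table Gna14 stood at 0.21, opposite in sign to the count fit and within its SE of 0.49 of 0.

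**Figure D3:**
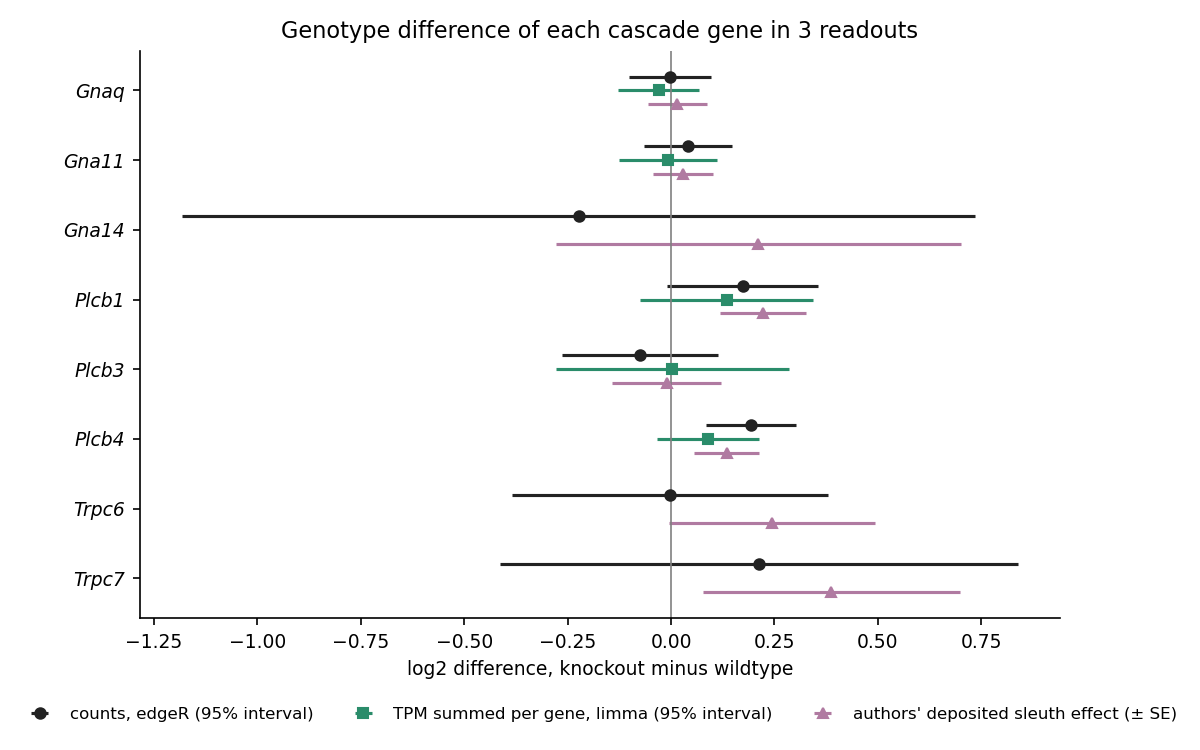
Log2 difference between knockout and wildtype for each cascade gene from counts (edgeR, 95% interval), TPM summed per gene (limma on log2(TPM + 0.5), 95% interval) and the authors' deposited sleuth effect (± SE). Intervals are narrow around 0 for Gnaq and Gna11 and wide for Gna14, Trpc6 and Trpc7, and Plcb4 moves from 0.19 in counts to 0.089 in TPM.

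Of the 52 transcript entries of the 8 genes, 16 reached the minimum of 1 TPM in at least 4 pools and 0 passed the limma test, beside 0.178% of 48214 entries. The entries carry no transcript identifier and are numbered here by mean TPM within a gene. Gnaq had 1 dominant entry with 82.7 to 91.6% of its TPM, and the leading entry of Gna11 held 72.1 to 87.2%. Plcb1 was divided between an entry with 43.7 to 70.5% and one with 29.5 to 56.3% of its TPM. The leading entry of Plcb3 held 48.4 to 79.6%. None of the 13 entries of Gna14, Trpc6 and Trpc7 reached the minimum.

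Plcb4 had the most entries of the 8 genes, 15, of which 6 were tested. Its first entry measured 19.3, 19.2, 14.7, 19.0 and 18.2 TPM in knockout and 16.3, 18.3, 22.3 and 19.1 TPM in wildtype, with overlapping groups and a log2 difference of −0.063 (SE 0.11; limma adjusted p = 0.917). Its second entry measured 10.3, 8.05, 12.2, 9.08 and 8.72 TPM in knockout and 6.57, 7.44, 5.27 and 7.28 TPM in wildtype. All knockout pools lay above all wildtype pools there, which held for 2.17% of all entries tested, and 4.37% did not overlap in either direction. The log2 difference of that entry was 0.51 (SE 0.14; limma adjusted p = 0.280, unadjusted p = 0.00575), and 9.24% of all entries had an unadjusted p under 0.05. Its share of the Plcb4 TPM was 15.7 to 26.8% in knockout and 11.8 to 17.7% in wildtype. The remaining 4 tested entries overlapped between the genotypes, with log2 differences from −0.42 to 0.49.

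**Figure D4:**
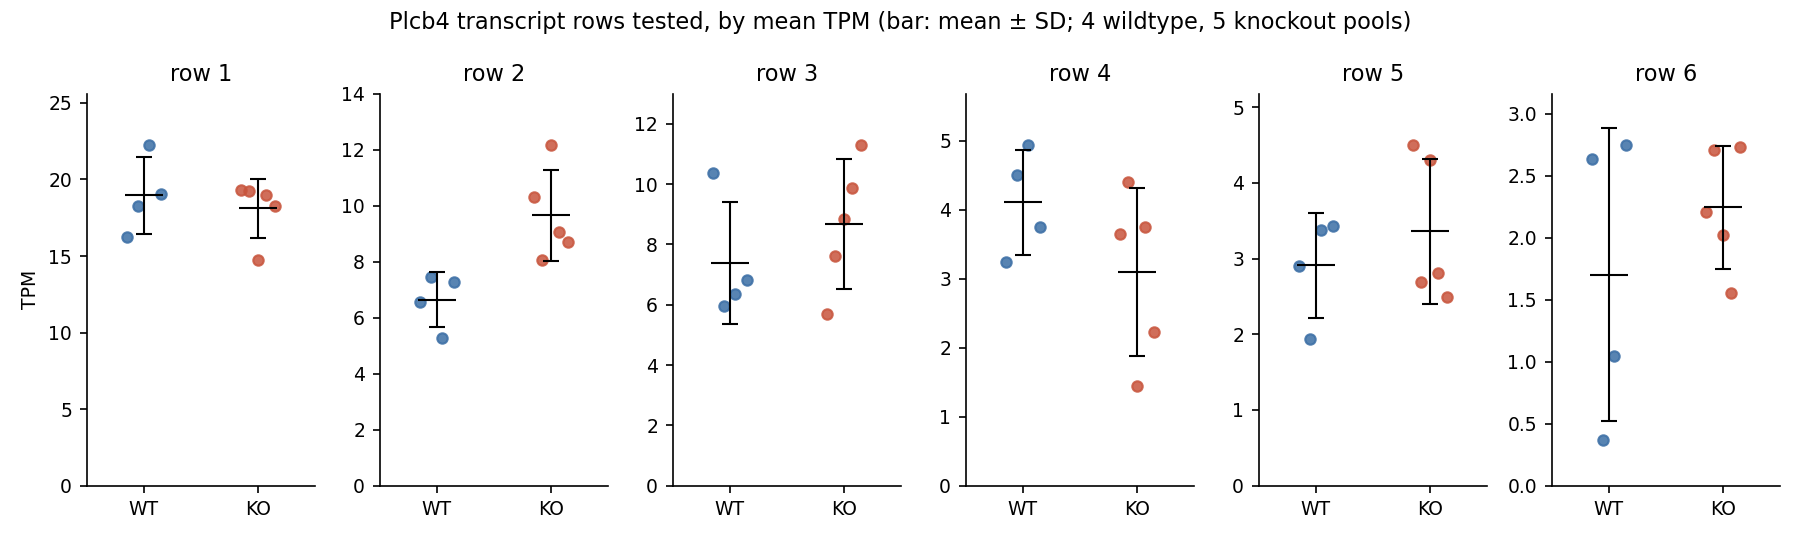
TPM per pool of the 6 tested transcript entries of Plcb4, ordered by mean TPM (axes from 0), with mean and SD of 4 wildtype (WT) and 5 knockout (KO) pools. Only the second entry, at 8.05 to 12.2 TPM in knockout and 5.27 to 7.44 TPM in wildtype, has groups that do not overlap.

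Other genes of the pathway changed singly. Of 111 tested genes in 9 lists, 5 were higher and 1 lower (edgeR adjusted p under 0.05), beside 1.34% higher and 2.25% lower among all genes tested. The median log2 fold change of the 111 genes was 0.018. Calls are described for 3 lists: the G protein beta and gamma subunits, with 2 of 17 higher; the genes that rebuild PIP2 or remove diacylglycerol, with 1 of 27 higher; and the protein kinase C genes, with 1 higher and 1 lower of 9. In the lists of other Gα subunits (11 tested), of remaining Gq, phospholipase C beta and TRPC genes (6), of RGS proteins, receptor kinases and arrestins (15), of other phospholipase C genes (8) and of IP3 receptors, store-operated channels and calmodulins (14), 0 passed.

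Gngt1, the gamma subunit of rod transducin and itself among the rod markers, rose from 49.5 ± 4.9 to 82.1 ± 14.3 CPM (a log2 difference of 0.73 by edgeR, SE 0.11, adjusted p = 0.00245). Gnb1, a beta subunit of rod transducin that other G proteins also use, rose from 977 ± 13 to 1124 ± 56 CPM (0.20, edgeR, SE 0.043, adjusted p = 0.0190). Dgkb, a kinase that removes diacylglycerol, rose from 5.03 ± 0.57 to 7.83 ± 0.72 CPM (0.64, edgeR, SE 0.11, adjusted p = 0.00465). For each of these genes all knockout pools lay above all wildtype pools. The calls of Gngt1 and Dgkb were kept without any single pool and without knockout pools 1 and 2 (edgeR adjusted p = 0.00679 and 0.0292), while that of Gnb1 was lost without knockout pool 2, wildtype pool 1 or wildtype pool 4 (up to 0.0632) and without knockout pools 1 and 2 (0.0952).

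Prkca, the protein kinase C alpha that is activated by diacylglycerol and doubles as a rod bipolar marker, rose by 0.28 on the log2 scale, to 86.6 ± 3.0 CPM from 71.3 ± 6.4 (edgeR adjusted p = 0.0145), a call lost without wildtype pool 1 (0.0531). Prkcd, another diacylglycerol-activated kinase, fell from 33.1 ± 2.4 to 27.7 ± 1.5 CPM (−0.26, edgeR adjusted p = 0.0430). Leaving out 1 pool ended the call of Prkcd for 7 of the 9 pools (edgeR adjusted p of at most 0.108), and the calls of both kinases were lost without knockout pools 1 and 2 (0.0613 for Prkca and 0.158 for Prkcd).

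**Figure D5:**
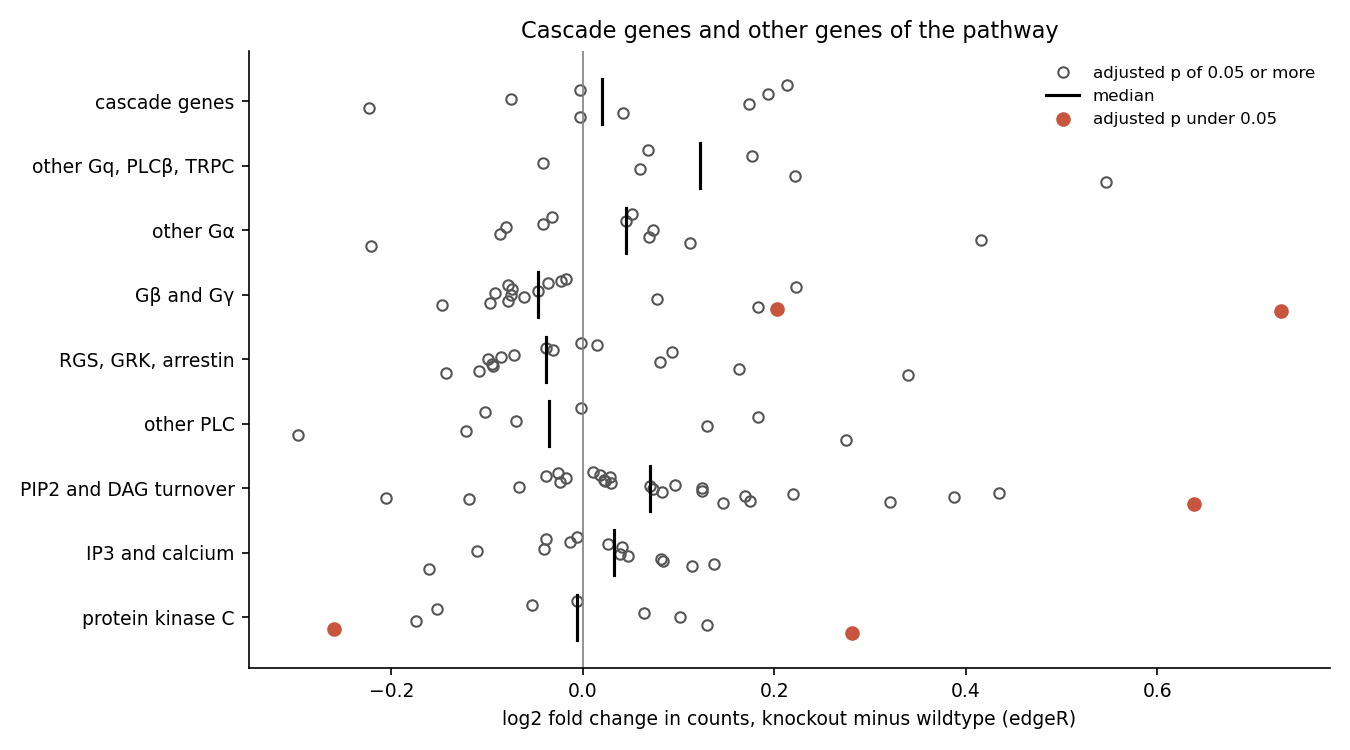
Log2 fold change in counts (knockout minus wildtype, edgeR) of the 8 cascade genes and of each tested gene of 8 pathway lists, with filled points for an adjusted p under 0.05 and a bar at the median of a list. The 5 filled points lie in 3 lists, the cascade genes have none, and the list medians lie between −0.047 and 0.12.

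In the lists without a call, the gene with the smallest p is given. Trpc5, a channel close to Trpc4, stood at 0.88 ± 0.14 CPM in knockout pools and 0.60 ± 0.16 CPM in wildtype pools (0.55 on the log2 scale by edgeR, SE 0.24, adjusted p = 0.285). Gnai2, an inhibitory alpha subunit, measured −0.22 (edgeR adjusted p = 0.230), and Calm2, a calmodulin gene, −0.16 (edgeR adjusted p = 0.158). Rgs5, a regulator of G protein signalling that also marks pericytes, measured 0.34 (edgeR adjusted p = 0.125), and Plch2, a phospholipase C eta, 0.27 (edgeR adjusted p = 0.114). Among other TRPC genes, the log2 fold change was −0.042 for Trpc1 (SE 0.067) and 0.068 for Trpc4 (SE 0.12). Gna15, the neighbour of Gna11, stood at 0.70 ± 0.23 CPM in knockout pools and 0.62 ± 0.16 CPM in wildtype pools (edgeR adjusted p = 0.837).

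Over the 9 pools, the genes whose pattern was most like that of Plcb4 were Fhod3, a formin, Cnst, which encodes consortin, and Psd3, an exchange factor for ARF GTPases. Their log2 CPM, centred on each gene's mean, differed from that of Plcb4 by a root mean square of 0.036, 0.038 and 0.042, where the median over 12489 genes of at least 5 CPM was 0.151. For Gna11, the member of highest mean TPM, the closest were Wbp2, Nudt3 and Fbxo31, at 0.024, 0.026 and 0.027, with a median over all genes of 0.121. All pools share the genotype grouping, so that genes with a similar difference between the genotypes score as alike.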

How the data were processed

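Values came from 3 tables that the authors deposited. The deposited counts are whole numbers per gene symbol, unscaled, with the counting program and any use of strand not given in the sources used here (the design text names kallisto for the counts in general). The deposited TPM signal is listed per transcript without identifiers, from kallisto 0.46.1 on GRCm38 after Trimmomatic 0.39, per the submitters' processing notes. Its column sums of 953963 to 1083980 show a rescaling that the sources do not describe, and 1673 entries without a symbol and 188 with a symbol of digits alone were left out. The authors' deposited comparison (sleuth 0.30.8) gives p-values, q-values and effects on the natural log scale, positive in wildtype as read from Opn4, and these were converted here to log2.

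Counts were filtered with filterByExpr, scaled by TMM and tested with edgeR 4.0.16 in R 4.3.3. TPM was tested with limma 3.58.1 (trend), and DESeq2 1.42.0 was an alternative. An SE is the log2 fold change divided by the root of F. Both tests were tested on simulated data. Pools of 1 genotype differed by more than sampling noise. Genes and lists were chosen with earlier results of these data known. From the lists, genes with a call are named (at most 8), or the gene of smallest p where a list has none, and for the highest and the most separated cascade gene the 3 genes closest in pattern (others named were chosen after their values were seen). Shared words and overlaps were counted in GENCODE M21. The count totals limit the precision for Gna14, Trpc6 and Trpc7. Some results, among them 1 called pathway gene, are not reported here.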

Additional observations from a re-analysis of the deposited data

Results flagged for a closer look

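In each genotype, the highest and the lowest pool of every cascade gene were compared with the next pool in CPM and in summed TPM. A gap was marked where it took more of the group's range than Dixon's 95% limit. Of 32 groups, 4 were marked, and chance marks about 1 in 20. Gna11 measured 81.0 CPM in knockout pool 1, below the 89.7 to 91.0 CPM of the other knockout pools. Gna11 measured 49.3 TPM in wildtype pool 2, below the 55.7 to 56.8 TPM of the other wildtype pools. Gna14 measured 0.516 TPM in knockout pool 1 against 0.138 to 0.236 TPM in the other knockout pools. Trpc7 measured 2.21 CPM in knockout pool 3 against 1.19 to 1.44 CPM in the other knockout pools.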

How the results depend on the processing

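The count of cascade genes called was 0 and became 1 (Plcb4) with DESeq2, with genes under a mean of 1 CPM left out, and with a robust fit, and 0 to 1 when single pools were left out (1 without wildtype pool 4). The cause was not tested. All genes called numbered 760, but 1509 with DESeq2, 486 without knockout pools 1 and 2, and 524 to 859 without single pools. Pathway genes called numbered 6, but 3 with no filter beyond a count above 0, 2 without knockout pools 1 and 2, and 2 to 7 without single pools (2 without wildtype pool 1, 3 without knockout pool 2 or wildtype pool 4). Log2 fold changes of some cascade genes changed sign: without knockout pools 1 and 2, Gnaq measured 0.018 and Plcb3 0.023. Without single pools, Gnaq ranged from −0.033 to 0.015, Gna14 from −0.50 to 0.071, Trpc6 from −0.088 to 0.097 and Trpc7 from −0.031 to 0.39. In summed TPM, Gna11 ranged from −0.055 to 0.012 and Plcb3 from −0.062 to 0.095 without single pools, and Gna11 was 0.017 with all pools rescaled to 1 total. No transcript entry of the cascade genes was called in any of 15 alternatives. Replicate numbers did not pair the pools, since deviations of same-numbered pools correlated at −0.031 to 0.0061 over 4 pairs. With the replicate number as a block, 0 cascade genes, 9 pathway genes and 888 genes in all were called. Plcb4 then measured 0.20 (edgeR adjusted p = 0.0772), and in summed TPM Gna11 was 0.0034 and Plcb3 −0.0097. Knockout pool 5 has no wildtype pool of its number and adds nothing to the genotype difference in that fit. Both summed TPM values equal those found without knockout pool 5.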
